A study of Rattus norvegicus with 8 samples.

Results

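The genes described here are those whose RNA was low in 1 of the 8 tumours of the series, the library labelled rapamycin replicate 2. A gene was taken where each of the other 7 tumours stood at 10 TPM or more and rapamycin replicate 2 stood below 0.25 of the lowest of those 7. TPM is transcript abundance corrected for gene length and scaled so that every library has the same sum. Of the 23918 genes in the deposited table, 7206 reached 10 TPM in all of the other 7 tumours, and 34 of these met the rule. The genes were chosen by their low TPM in rapamycin replicate 2, so that level is given below as a description, with no test.

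Tumours were grown subcutaneously in female NOD-scid mice of 6 weeks of age, from ELT3-V3 cells, a line derived from a rat uterine leiomyoma. Mice were randomized at a tumour volume of 150 to 200 mm3 into 4 groups, each with 2 sequenced tumours. Controls received the vehicle, which was carboxymethylcellulose at 0.2% and Tween-80 at 0.25%. The rapamycin group received rapamycin at 0.25 mg/kg per day. In the other 2 groups, rapamycin, at a dose that the labels leave unstated there, was combined with daily clorgyline (10 mg/kg) or with daily rasagiline (1 mg/kg). All tumours came from the same cell line, and NOD-scid hosts lack mature T and B cells. The labels do not say that each tumour came from its own mouse. The 2 replicates of a group may therefore not be independent, and their spread may understate that between mice.

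ELT3 cells lack tuberin, the product of the Tsc2 gene. Tuberin and its partner hamartin keep the small GTPase Rheb inactive, and in their absence Rheb drives the kinase complex mTORC1, which promotes protein, lipid and nucleotide synthesis and cell growth. Rapamycin binds FKBP12, and that complex inhibits mTORC1. Clorgyline and rasagiline are irreversible propargylamine inhibitors of monoamine oxidase, selective for its A form and its B form respectively. A tumour of this kind holds grafted rat cells together with vessels, fibroblasts and myeloid cells of the mouse host. In RNA from a whole tumour, fewer cells of a type and less RNA per cell cannot be told apart.

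The deposited table names genes by Ensembl ID only, and 0 of its IDs could be matched to the symbols of the reference used here. The tissue or cell state of the 34 genes was therefore not identified, and marker genes of muscle, fibroblast, vessel, immune or other cells could not be read. The labelled cell line could not be checked against its markers for the same reason. Below, 4 genes are named by ID, which are the pair with the highest levels in the other 7 tumours and the pair lowest in rapamycin replicate 2 relative to them. Other genes are referred to by their place, 1 to 34, in the order of their median TPM over those 7 tumours.

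In its general measures rapamycin replicate 2 was close to the other libraries, although it was the lowest in both counts of detected genes. It had 17001 genes above 0, against 17124 to 18012 in the other 7 libraries, and 12317 at 1 TPM or more, against 12479 to 13270. Its 100 most abundant genes held 34.7% of its TPM, within the range of 32.0% to 36.7% in the others. Over the 7206 genes at 10 TPM or more elsewhere, its level was a median of 0.974 of the median of the other 7 tumours. Every library has the same TPM sum, so this median cannot show a loss shared by all genes. The cause of the low values of the 34 genes was not tested. Depth is not kept by TPM and was unknown.

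The 34 genes held 212 TPM in all in rapamycin replicate 2. They held 1819 TPM in rapamycin with rasagiline replicate 2, the next lowest tumour, and 2768 TPM in rapamycin with clorgyline replicate 1, the highest. The other treated tumours held 2049 TPM in rapamycin replicate 1, 2625 TPM in clorgyline combination replicate 2 and 2323 TPM in rasagiline combination replicate 1, and the controls held 2370 and 2349 TPM. The low sum in rapamycin replicate 2 follows from the rule. Rapamycin replicate 1 fell within the range of the remaining tumours.

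None of the 34 genes was listed at 0 in rapamycin replicate 2, although with unknown depth the lowest values there cannot be told from absence. The median level of the 34 in that tumour was 3.32 TPM, with a range from 0.691 to 54.9 TPM. 2 of the 34 stood below 1 TPM and 4 were still at 10 TPM or more. In the other tumours the median over the 34 genes lay between 25.9 TPM (rasagiline combination replicate 2) and 41.7 TPM (control replicate 1). Ranked among all genes of its own library, the median gene of the 34 sat at percentile 55.9 in rapamycin replicate 2 and between percentiles 78.8 and 86.1 in the other 7.

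**Figure D1:**
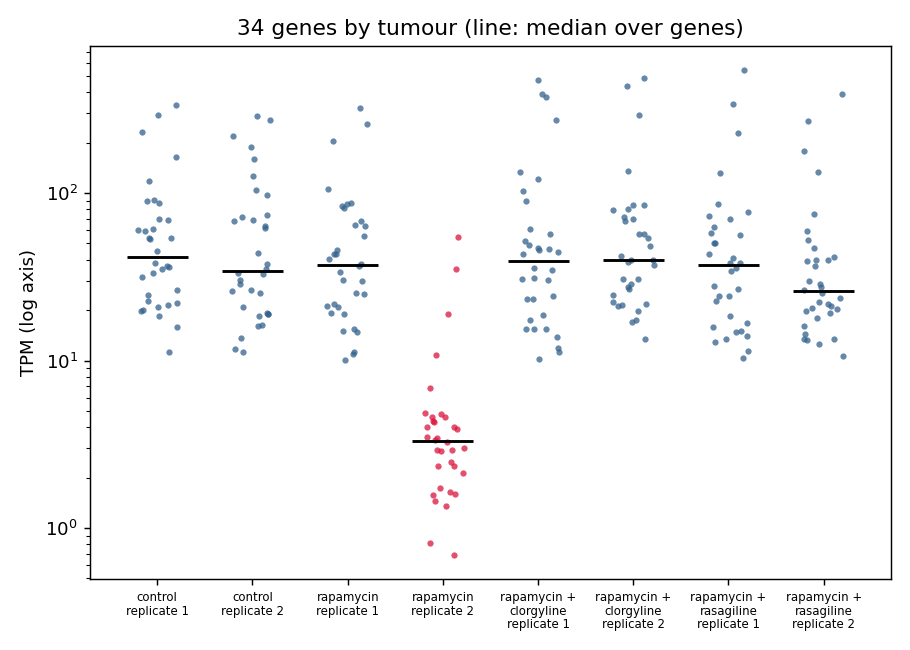
TPM of the 34 genes in each tumour on a log axis, with 1 point per gene and a line at the median over genes. The rapamycin replicate 2 points have a median of 3.32 TPM, and the medians of the other tumours lie between 25.9 and 41.7 TPM.

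The size of the reduction differed among the genes. The lowest of the other 7 tumours was a median of 6.66-fold above rapamycin replicate 2, with a range from 4.03-fold to 24.1-fold. The median of the other 7 was 11.8-fold above it (range 4.80 to 31.3), and rapamycin replicate 1 alone was 12.5-fold above it (range 4.33 to 29.1). Of the 34 genes, 7 lay below 0.1 of the lowest other tumour and 1 below 0.05. At a looser limit of 0.5 of the lowest other tumour there were 124 genes, so the 34 are the end of a longer list.

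The limit itself cut through closely spaced genes. The 3 genes just inside it stood at 0.232, 0.233 and 0.248 of the lowest other tumour, with 3.35, 4.32 and 2.92 TPM in rapamycin replicate 2. The 3 just outside stood at 0.255, 0.256 and 0.267, with 9.75, 9.26 and 33.1 TPM there.

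ENSRNOG00000003357 had the highest level of the 34 genes. It stood at 292 and 287 TPM in the controls, 321 TPM in rapamycin replicate 1 and 54.9 TPM in rapamycin replicate 2. It stood at 392 and 483 TPM with clorgyline and at 542 and 389 TPM with rasagiline. All 4 combination tumours were above both controls, and rapamycin replicate 2 was the single tumour below them.

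ENSRNOG00000021155 came next in level. It stood at 338 and 275 TPM in the controls, 259 TPM in rapamycin replicate 1 and 19.1 TPM in rapamycin replicate 2. With clorgyline it stood at 274 and 436 TPM, and with rasagiline at 227 and 178 TPM. The clorgyline tumours lay on either side of the controls, while rapamycin replicate 1 and both rasagiline tumours lay below them.

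ENSRNOG00000057601 was the lowest in rapamycin replicate 2 relative to the other tumours. It stood at 69.4 and 97.2 TPM in the controls, 38.0 TPM in rapamycin replicate 1 and 1.58 TPM in rapamycin replicate 2. The clorgyline tumours stood at 49.3 and 85.0 TPM, and the rasagiline tumours at 38.2 and 41.2 TPM. Apart from clorgyline combination replicate 2, which lay between the controls, all treated tumours were below both controls, and rapamycin replicate 2 was 24.1-fold below the lowest of them.

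ENSRNOG00000031930 was a weaker gene with a similarly deep reduction. It stood at 19.6 and 11.2 TPM in the controls, 14.7 TPM in rapamycin replicate 1 and 0.691 TPM in rapamycin replicate 2. The clorgyline tumours stood at 13.8 and 26.8 TPM and the rasagiline tumours at 15.0 and 17.98 TPM. Clorgyline combination replicate 2 was above both controls and the other treated tumours lay between them, and no tumour but rapamycin replicate 2 was below 11.2 TPM.

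**Figure D2:**
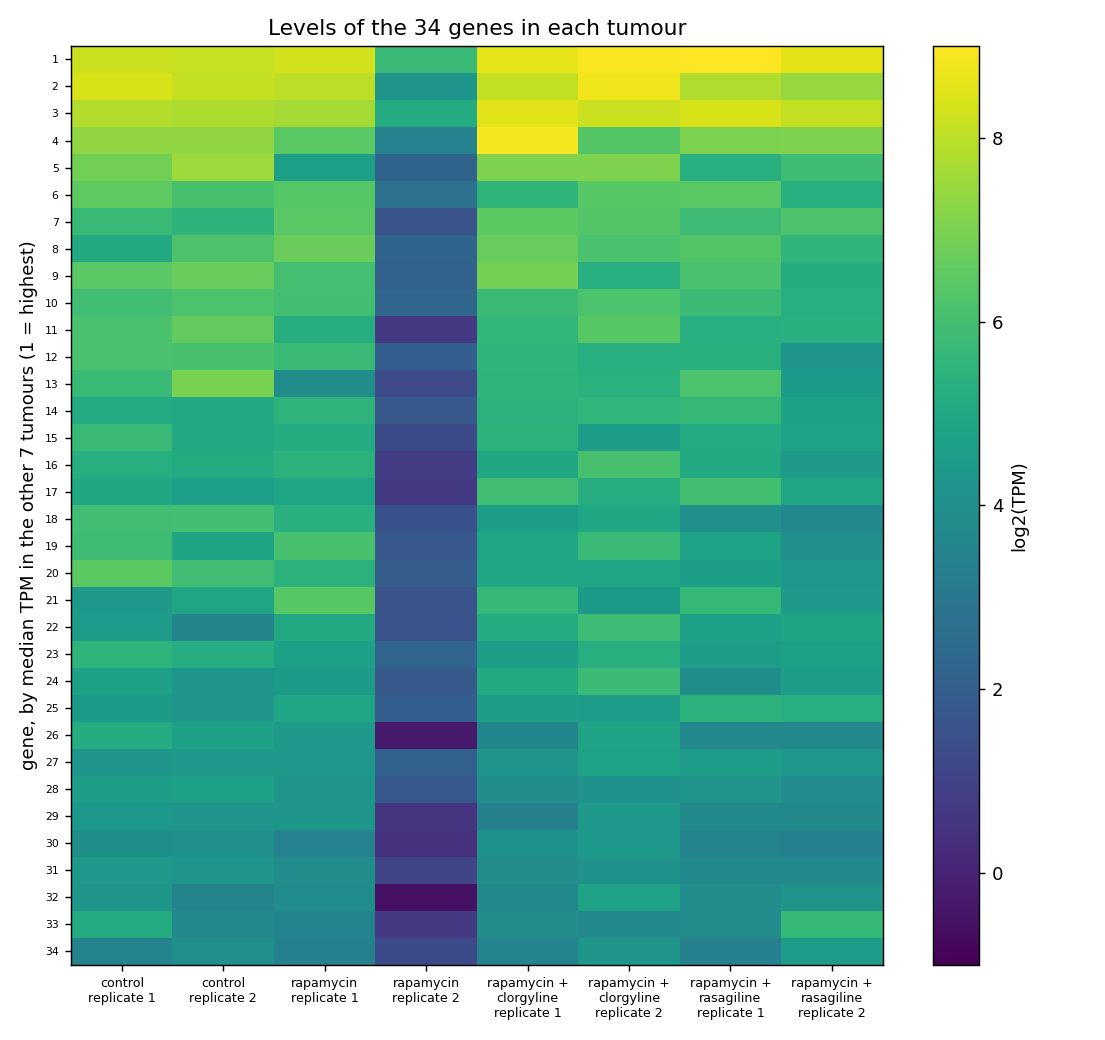
Level of each of the 34 genes (rows, ordered by median TPM in the other 7 tumours) in each tumour (columns), as log2(TPM) by colour. The rapamycin replicate 2 column is darker than the others in every row, as the rule requires, and the other 7 columns differ from row to row.

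The same rule was then applied with each other tumour in place of rapamycin replicate 2. It found 1 gene for clorgyline combination replicate 2 and 0 genes for each of the other 6 tumours. The mirror rule, a tumour above 4 times the highest of the other 7 where that highest was at least 10 TPM, found 4 genes for rapamycin replicate 2. It found 3 for clorgyline combination replicate 2, 1 for rasagiline combination replicate 1 and 0 for the other 5 tumours. The rule for low genes set a minimum for all of the other 7 tumours and the mirror rule only for the highest of them, so their counts are not on the same footing.

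Among the other 7 tumours, rasagiline combination replicate 2 was the lowest in 14 of the 34 genes (41.2%). It was the lowest in 12.3% of the 7206 genes at 10 TPM or more. Rapamycin replicate 1 was the lowest in 6 of the 34 (17.6%, against 5.76% of the 7206) and control replicate 2 also in 6 (17.6%, against 24.3%). Clorgyline combination replicates 1 and 2 were the lowest in 3 (8.82%, against 27.2%) and 2 (5.88%, against 5.91%) of the 34. Rasagiline combination replicate 1 was the lowest in 1 (2.94%, against 8.26%) and control replicate 1 in 2 (5.88%, against 16.3%). The highest tumour was more evenly spread. Clorgyline combination replicate 2 (8 genes, 23.5%, against 17.4% of the 7206) and control replicate 1 (7 genes, 20.6%, against 18.7%) led.

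In 7 of the 34 genes, rasagiline combination replicate 2 was also below 0.5 of the median of the remaining 6 tumours (20.6%, against 0.472% of the 7206 genes). For each of the remaining 6 tumours this held in 0 to 2 of the 34. It held in 2 for rapamycin replicate 1 (5.88%, against 0.458% of the 7206). The count was also 2 for rasagiline combination replicate 1 (5.88%, against 0.319%). Clorgyline combination replicates 1 and 2 had 1 (2.94%, against 0.208%) and 0 (against 0.208%). Control replicates 1 and 2 had 1 each (2.94%, against 1.73% and 1.499%). A higher share than among the 7206 was therefore not particular to rasagiline combination replicate 2, although the other shares rest on 1 or 2 genes. When rasagiline combination replicate 2 was not required to be high, 48 genes met the rule, 14 more than before. Leaving out any other tumour of the 7 added 1 to 4 genes. In the 14 added genes, rasagiline combination replicate 2 stood between 4.10 and 30.6 TPM, at a median of 0.70 of the lowest of the remaining 6. It was below 10 TPM in 10 of them, so most were kept out by the minimum level.

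**Figure D3:**
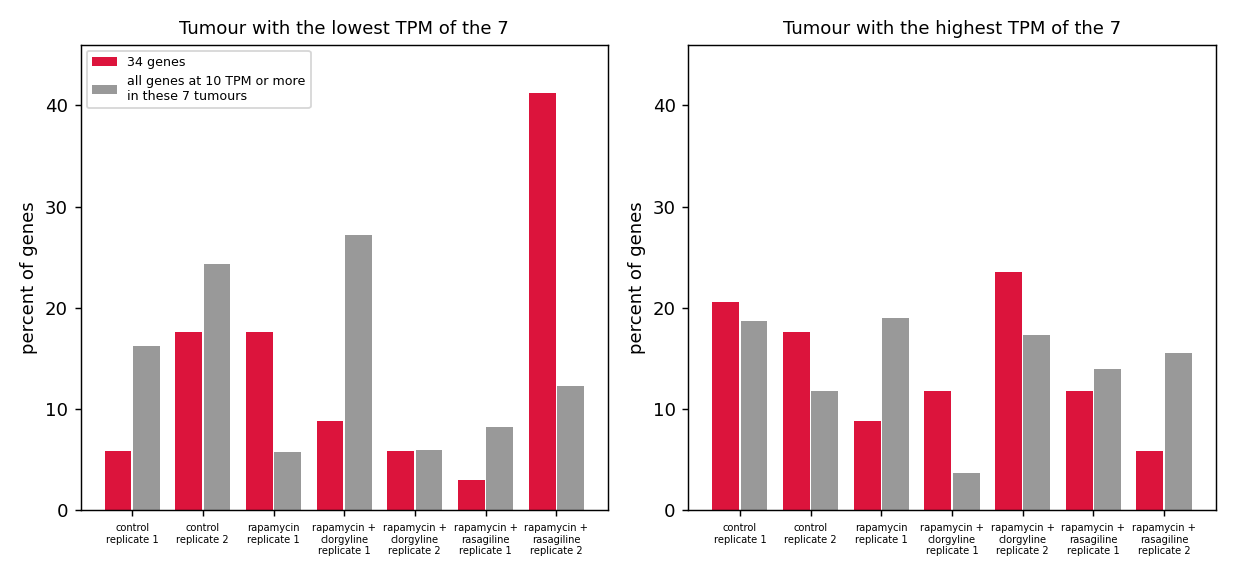
Percent of genes for which each of the 7 other tumours was the lowest (left) or the highest (right), for the 34 genes and for all 7206 genes at 10 TPM or more in these tumours. Rasagiline combination replicate 2 was the lowest for 41.2% of the 34 genes and 12.3% of all.

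The 34 genes also varied more among the 7 tumours that were not used as the low one. The highest of the 7 was a median of 2.46-fold above the lowest, with a range from 1.49 to 8.16, against a median of 1.53-fold over the 7206 genes. The widest was gene 13, at 53.5 and 127 TPM in the controls, 15.5 TPM in rapamycin replicate 1, 45.9 and 42.1 TPM with clorgyline and 72.8 and 21.6 TPM with rasagiline. There every treated tumour except rasagiline combination replicate 1 was below both controls. Gene 4 was at 471 TPM in clorgyline combination replicate 1 and between 80.3 and 163 TPM in the other 6, so its range came from 1 tumour.

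Group differences were tested without rapamycin replicate 2. limma was fitted to all 13588 genes with at least 1 TPM in at least 2 of the 7 libraries, on log2(TPM + 1). Differences on this scale understate the change of weak genes. A gene rose or fell where its Benjamini-Hochberg adjusted p was below 0.05. All 34 genes entered, as the rule guarantees. The rule also required 10 TPM in each of these tumours, which keeps out genes that were very low in any of them. The 3 comparisons with control share the same 2 control tumours.

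With rasagiline, 3 of the 34 genes fell and 1 rose relative to control. 14 of the 34 (41.2%) had an unadjusted p below 0.05, against 24.96% of all genes tested. Over all genes tested, 2.39% fell and 4.84% rose, and 7.23% were called in either direction. The median log2 difference of the 34 genes was -0.43, against 0.15 for all genes tested, and 21 of the 34 were below 0. In 17 of the 34 both rasagiline tumours lay below both controls, which held for 18.4% of all genes tested and for 23.7% of the 7206 at 10 TPM or more. In 5 of the 34 both lay above both controls, against 40.9% of all genes tested and 34.8% of the 7206.

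Gene 18 fell the furthest with rasagiline. It stood at 60.9 and 63.4 TPM in the controls and at 16.8 and 12.6 TPM with rasagiline, or 62.2 ± 1.76 against 14.7 ± 3.03 TPM (SD, n = 2 each). The log2 difference was -2.02 (SE 0.20, limma adjusted p = 0.00566, range 0.00272 to 0.277 over the alternatives). It stood at 40.2 TPM in rapamycin replicate 1, at 24.3 and 30.8 TPM with clorgyline and at 2.90 TPM in rapamycin replicate 2. Rapamycin replicate 1 and all 4 combination tumours were below both controls, and the rule places rapamycin replicate 2 below them. The upper end of the adjusted p range above came from the fit with all 8 libraries. The same holds for the rasagiline ranges of genes 20, 5 and 25 and the clorgyline ranges of genes 20 and 18. In that fit the low values that the rule requires in rapamycin replicate 2 widen the shared spread, so it is no test of these calls.

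Gene 20 had a similar order of tumours. It stood at 89.2 and 61.6 TPM in the controls, 43.5 TPM in rapamycin replicate 1, 30.4 and 30.5 TPM with clorgyline, 24.3 and 19.9 TPM with rasagiline and 3.90 TPM in rapamycin replicate 2. It fell with rasagiline (log2 difference -1.71, SE 0.21, limma adjusted p = 0.00954, range 0.00515 to 0.322 over the alternatives).

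Gene 5 differed between the combinations in its values. It stood at 118 and 187 TPM in the controls and at 134 and 136 TPM with clorgyline, which lay between the controls. It stood at 38.3 and 59.6 TPM with rasagiline, 25.1 TPM in rapamycin replicate 1 and 4.62 TPM in rapamycin replicate 2. The fall with rasagiline had a log2 difference of -1.62 (SE 0.28, limma adjusted p = 0.0215, range 0.0147 to 0.227 over the alternatives). The direct difference between the combinations, 1.48 on the log2 scale with a 95% interval from 0.82 to 2.13, did not pass (limma adjusted p = 0.199, range 0.17 to 0.997).

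Gene 25 was the one that rose with rasagiline. It stood at 22.0 and 18.9 TPM in the controls and at 43.5 and 39.9 TPM with rasagiline (log2 difference 0.99, SE 0.16, limma adjusted p = 0.0185, range 0.0128 to 0.477 over the alternatives). It stood at 30.1 TPM in rapamycin replicate 1, 23.4 and 22.2 TPM with clorgyline and 3.99 TPM in rapamycin replicate 2. In this gene rapamycin replicate 1 lay above both controls, and the rule places rapamycin replicate 2 below them.

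These calls depended on single tumours. Over all genes, calls with rasagiline against control, given at the end, were fewer whenever a single tumour was left out. The number of the 34 called with rasagiline was 0 without control replicate 1, 2 without control replicate 2, 3 without either rasagiline tumour and 6 without either clorgyline tumour. After median rescaling 7 fell and 1 rose, where 48.8% of 937 calls over all genes rose, in place of 66.9% of 983. With quantile normalization 5 fell and 1 rose, and 53.0% of 805 calls over all genes rose. With rapamycin replicate 2 back in the fit, where its values enter the shared spread, limma called 0 of the 34, and 1 had an unadjusted p below 0.05. Over all genes that fit gave 215 calls, against 983 without that library.

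With clorgyline, 0 of the 34 genes passed the limma test against control, where 1.03% of all genes did, and 8 of the 34 (23.5%) had an unadjusted p below 0.05, near the 18.5% of all genes tested. The median log2 difference was 0.06, equal numbers (17 and 17) were above and below 0, and all genes tested had a median of 0.06. The smallest limma adjusted p among the 34 was 0.0524, for gene 20, with a log2 difference of -1.26 (95% interval -1.76 to -0.75, adjusted p 0.0384 to 0.565 over the alternatives). Gene 18 had a log2 difference of -1.15 (limma adjusted p = 0.0539, range 0.0409 to 0.623). Both passed with median rescaling and with a filter of 5 TPM. Both clorgyline tumours lay above both controls in 9 of the 34 genes and below them in 6, against 29.3% and 19.8% of all genes tested. Among the 7206 genes at 10 TPM or more these shares were 23.9% and 24.3%. The 95% interval lay within 1 log2 unit of 0 on both sides for 8 of the 34, against 66.9% of all genes tested, so larger differences were not excluded by the data for the others.

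Rapamycin replicate 1, a single tumour, was compared with the controls by taking its spread to be that of the other groups. 1 of the 34 genes fell and 0 rose, where 0.206% of all genes fell and 0.25% rose, and 9 of the 34 (26.5%) had an unadjusted p below 0.05 in limma, against 15.9% of all genes tested. The one that fell was gene 5 (log2 difference -2.52, SE 0.34, limma adjusted p = 0.047, range 0.0302 to 0.174 over the alternatives). That call was lost without either control, without either clorgyline tumour, with no filter, with no variance trend and under both rescalings. The median log2 difference of the 34 was -0.17, against 0.15 for all genes, and 21 of the 34 were below 0. Rapamycin replicate 1 lay below both controls in 17 of the 34 and above both in 10, against 25% and 52.7% of all genes tested. Among the 7206 genes at 10 TPM or more these shares were 27.0% and 51.1%. The median log2 difference of the 34 was -0.10 without control replicate 1 and -0.30 without control replicate 2.

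The combinations were compared with each other directly, at doses that were not matched. 0 of the 34 genes passed the limma test, where 0.0294% of all genes did, and 7 of the 34 (20.6%) had an unadjusted p below 0.05, against 7.50% of all genes tested. The values were nonetheless one-sided, since 29 of the 34 were higher with clorgyline, against 4797 of all 13588 genes tested. Their median log2 difference was 0.33, against -0.09 for all genes tested. In 12 of the 34 both clorgyline tumours lay above both rasagiline tumours, against 9.77% of all genes tested, and in 1 both lay below, against 27%. Among the 7206 genes at 10 TPM or more these shares were 9.88% and 24.7%. The median difference of the 34 was 0.20 without rasagiline combination replicate 2, with 22 of 34 above 0, and 0.64 without rasagiline combination replicate 1, with 31 above 0. The median was above 0 without either of these tumours, and smaller without rasagiline combination replicate 2. It was 0.42 without clorgyline combination replicate 1, with 26 of 34 above 0, and 0.31 without clorgyline combination replicate 2, with 23 above 0.

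**Figure D4:**
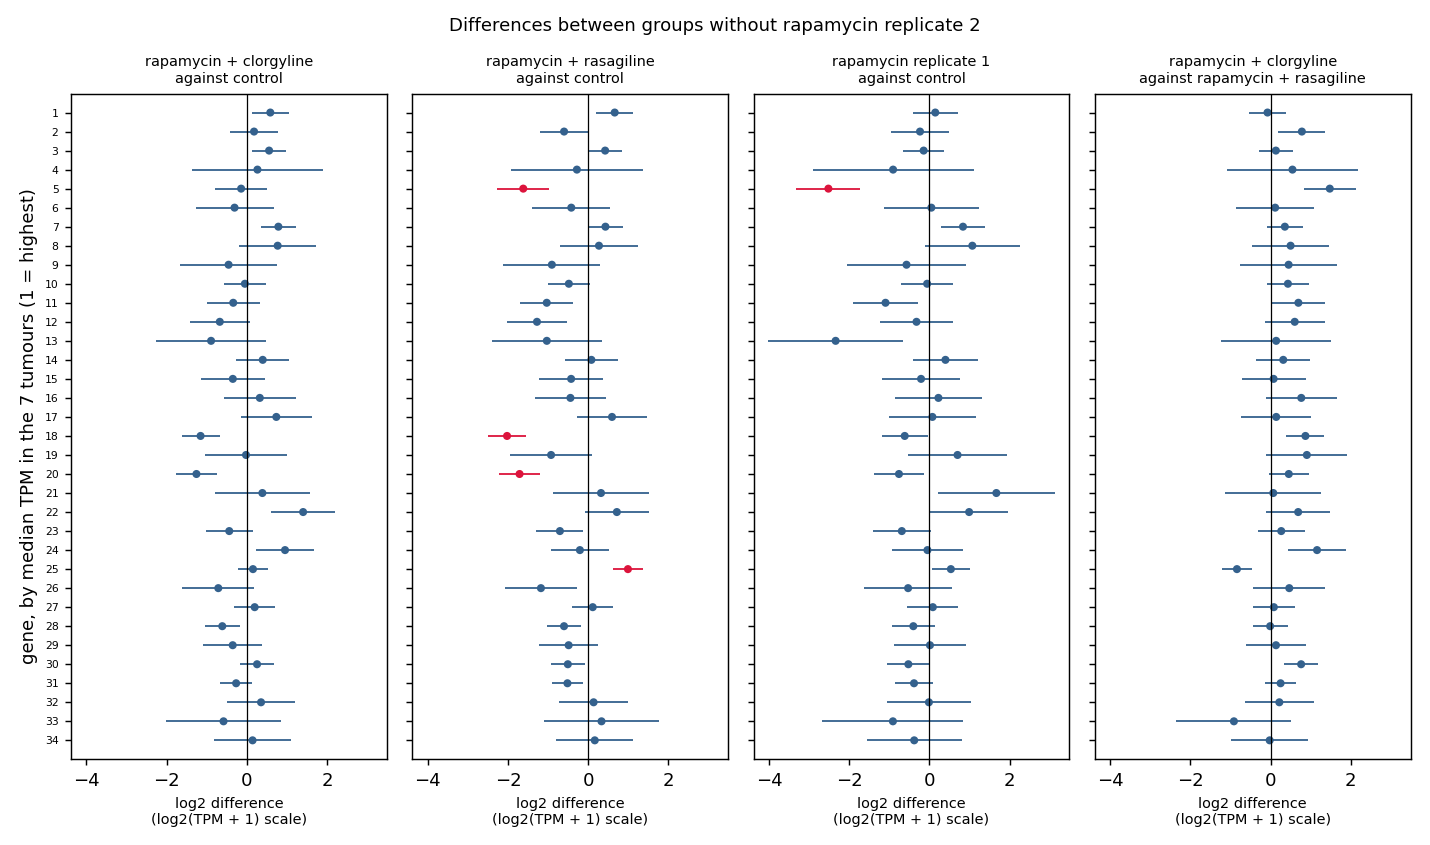
Log2 difference with its 95% interval for each of the 34 genes (ordered by median TPM) in the 4 comparisons made without rapamycin replicate 2, with genes at limma adjusted p below 0.05 in red. Red marks 4 genes with rasagiline against control (3 lower, 1 higher), 1 gene in rapamycin replicate 1 against control and none in the other 2 comparisons.

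Both controls lay above all 5 of the other treated tumours in 5 of the 34 genes (14.7%), against 10.5% of all genes tested and 13.9% of the 7206. Both controls lay below all 5 in 4 of the 34 (11.8%), against 22.2% and 18.5%. In the remaining 25 genes the controls overlapped with these treated tumours.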

How the data were processed

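The authors deposited TPM values, 1 column per tumour, for 23918 Ensembl rat gene IDs. The submitters' processing notes list bedtools, DESeq2, SAMtools 0.1.18, STAR 2.4.0f1 and the build rn6, without their roles. The annotation, the tool behind TPM and how mouse host reads were handled are, in the sources used here, not given. Groups came from sample titles, and replicate numbers only name tumours. No ID matched the reference table (GRCr8, 47357 genes), so the 22 gene lists, fixed as symbols, could not be tested and no sequence is shown.

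The 34 genes, the lists and the comparisons were chosen with earlier results of these data known. limma 3.58.1 in R 4.3.3 fitted 4 group means to 7 libraries (3 residual degrees of freedom, intensity trend). Tests were two-sided, with Benjamini-Hochberg adjustment over 13588 genes. On simulated data, the share of false calls exceeded the 0.05 limit in each of the 4 comparisons. The rule for values in every tumour took the 2 genes with the highest median and the 2 with the lowest ratio by ID. Every gene called is given by its place in the level order. Genes 4 and 13 were chosen after their values were seen. Alternatives changed the pseudocount, filter, scaling, variance trend and libraries.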

Additional observations from a re-analysis of the deposited data

How the results depend on the processing

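The number of genes meeting the rule was 68 with a minimum of 5 TPM and 17 with 20 TPM, 124 below 0.5 of the lowest tumour and 10 under the stricter ratio limit tried, and 33 after median rescaling, 31 of them among the 34. Leaving out single tumours gave 35 to 48.

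Of the 34 genes, limma called 4 with rasagiline against control. It called 1 with no filter on low values, 8 after median rescaling and 0 with all 8 libraries fitted, where the chosen library enters the spread. With clorgyline against control it called 0, and 2 with a filter of 5 TPM or after median rescaling. The single call in rapamycin replicate 1 against control became 0 with no filter, with no variance trend and under both rescalings. Leaving out single tumours gave 0 to 6, 0 and 0 to 1 calls in the same order, and 0 between the combinations.

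Over all genes, clorgyline against control gave 140 calls, with 87 at a pseudocount of 5 TPM, 7 with no filter, 235 with a filter of 5 TPM, 25 with quantile normalization, 42 with no variance trend and 2 with all 8 libraries. Rasagiline against control gave 983, with 205 with no filter and 215 with all 8 libraries. Rapamycin replicate 1 against control gave 62, with 12 with no variance trend and 0 under both rescalings. The combinations against each other gave 4, with 7 at a pseudocount of 5 TPM, 0 with no filter and 2 with no variance trend. Leaving out single tumours gave 0 to 136, 55 to 981, 0 to 82 and 0 to 4 calls in the same order. The cause of these differences was not tested.

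No paired analysis was possible because the labels give no replicate number that ties tumours of different groups together. TPM keeps no depth, so the counting error behind the low values in rapamycin replicate 2 is unknown. The 34 genes ranged there from 0.691 to 54.9 TPM, with a median of 3.32 TPM.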
